A study of Mus musculus with 12 samples.

Results

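Beige adipocytes are the heat-producing fat cells that appear within white fat, and 5 genes used to identify them were read across the inguinal white adipose tissue (iWAT, the subcutaneous fat pad of the mouse groin) of cold-exposed mice. The genes were *Cidea*, *Dio2*, *Kcnk3*, *Tmem26* and *Letmd1*, chosen by name, and all 5 are among the 14159 genes with deposited values. Polyadenylated RNA of whole iWAT was sequenced to ask how adipocytes without the stress-response factor ATF4 take part in browning. Atf4WT mice carried floxed *Atf4* alleles (Atf4 flox/flox) without Cre, and their Atf4AKO littermates carried the same alleles with *Adipoq*-Cre, all on a C57BL/6 background. *Adipoq*-Cre acts in mature white, beige and brown adipocytes and leaves *Atf4* intact in the other cells of the tissue. There were 4 groups of 3 libraries, namely Atf4WT and Atf4AKO iWAT at room temperature (RT) and each genotype after 24 h of cold exposure. The labels call the libraries biological replicates 0, 1 and 2 and give neither age nor sex.

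Beige adipocytes burn fatty acids in dense mitochondria, where UCP1 lets protons leak back across the inner membrane so that respiration yields heat. Cold acts on them through noradrenaline, the β-adrenergic receptors and cAMP. The 5 genes stand for different steps of this program. *Dio2* encodes the type 2 deiodinase, the selenoenzyme that makes active thyroid hormone (T3) inside the cell. *Letmd1* encodes a mitochondrial inner membrane protein needed for brown fat heat production. *Kcnk3* encodes TASK-1, a two-pore potassium channel of the plasma membrane. *Tmem26* encodes a membrane protein used as a surface marker of beige cells and their precursors. *Cidea* encodes a lipid droplet protein that is abundant in brown and beige fat.

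The values are normalized counts, which are reads per gene scaled by the size factor of each library, with 25719476 to 29105147 reads per library. *Atf4* itself lay at 4107 to 5669 normalized counts in Atf4WT at RT and at 1470 to 1639 in Atf4AKO at RT. After cold it lay at 5756 to 7644 in Atf4WT and at 788 to 1578 in Atf4AKO, so the genotypes did not overlap at either temperature. All 11 white adipocyte markers were listed and their summed counts were from 1267324 to 1925414 per library. The cell mixture was not the same in all groups. The lymphocyte score, the mean log2 level of 17 B and T cell markers, was 7.37 to 9.74 in Atf4WT after cold and 3.76 to 5.17 in Atf4AKO after cold, against 3.89 to 7.25 and 4.02 to 5.36 at RT. The summed counts of 7 progenitor and fibroblast markers were 49740.0 to 76501 at RT and 12549 to 44622 after cold, without overlap. Of these markers, 1 was called lower in Atf4WT and 2 in Atf4AKO, where 14.9% and 11.0% of all tested genes were. The 7 listed macrophage markers summed to 15630.4 to 31405 at RT and to 3335 to 20104 after cold, with no marker called. The 5 listed muscle markers ranged from 72.3 to 81505 in their sum, with the highest library in Atf4WT at RT. The part of these cell types in the cold changes was not tested. In whole tissue, fewer cells of a type and less RNA per cell cannot be told apart. Only 1 of 6 epithelial markers was listed, at 6.80 to 34.6 normalized counts.

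Cold exposure raised *Cidea*, *Dio2*, *Kcnk3* and *Letmd1* in both genotypes, while *Tmem26* stayed low and was not called in either. The tests used limma on log2(normalized count + 1) over 13404 genes whose mean over the 12 libraries was 10 normalized counts or more, a filter that all 5 genes passed, and a gene was called at a Benjamini-Hochberg adjusted p under 0.05. Of the 5 genes, 4 were called higher after cold in Atf4WT, where 17.0% of all tested genes were called higher and 14.9% lower. The same 4 were called higher in Atf4AKO, where 14.8% of all tested genes were called higher and 11.0% lower. For each of these 4 genes every cold library lay above every RT library of its genotype, which held for 23.9% of tested genes in Atf4WT and for 21.7% in Atf4AKO. None of the 5 genes was called between the genotypes, where 0.0298% of all tested genes were called after cold and 0.00746% at RT.

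**Figure D1:**
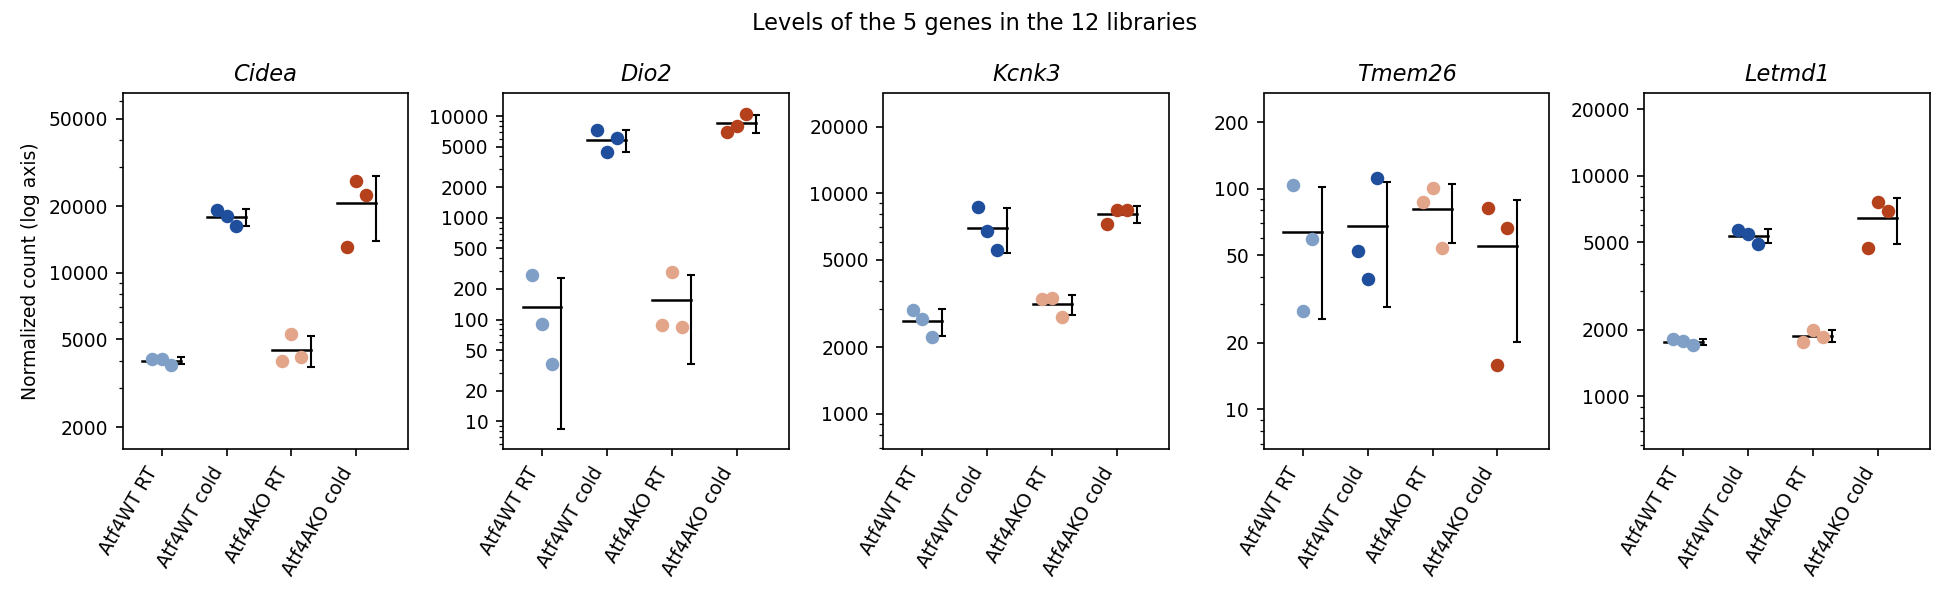
Normalized counts (log axis) of the 5 genes in the 12 libraries, 1 panel per gene, with points for libraries, a line at the group mean and a bar for the SD of 3 libraries. The cold and RT points are apart in the panels of Cidea, Dio2, Kcnk3 and Letmd1 and mixed in that of Tmem26, where the lowest point is 15.9 and the highest 112 normalized counts.

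Promoter sequences were at hand for only 3 of the 5 genes, *Dio2*, *Letmd1* and *Tmem26*, and all 3 are shown. Their part in the cold response was not tested. Each runs 5′ to 3′ along the gene, from 250 bases before the RefSeq start site to 50 bases from it onwards (GRCm38.p6), with the motifs that were found in capitals. The *Dio2* window is chr12:90738989-90739288 on the minus strand, the *Letmd1* window chr15:100468761-100469060 on the plus strand and the *Tmem26* window chr10:68723496-68723795 on the plus strand.
Dio2: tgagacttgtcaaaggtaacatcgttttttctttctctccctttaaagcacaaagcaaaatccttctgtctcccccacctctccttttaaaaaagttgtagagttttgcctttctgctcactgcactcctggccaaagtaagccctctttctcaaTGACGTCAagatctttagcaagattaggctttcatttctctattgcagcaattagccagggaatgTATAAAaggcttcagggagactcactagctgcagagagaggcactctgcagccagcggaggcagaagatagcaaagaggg
Letmd1: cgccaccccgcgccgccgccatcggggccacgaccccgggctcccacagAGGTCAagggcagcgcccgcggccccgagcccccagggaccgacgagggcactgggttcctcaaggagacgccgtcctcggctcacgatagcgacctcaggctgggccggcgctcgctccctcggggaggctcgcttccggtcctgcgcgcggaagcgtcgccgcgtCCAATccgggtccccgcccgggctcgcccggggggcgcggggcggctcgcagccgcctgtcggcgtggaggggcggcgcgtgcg
Tmem26: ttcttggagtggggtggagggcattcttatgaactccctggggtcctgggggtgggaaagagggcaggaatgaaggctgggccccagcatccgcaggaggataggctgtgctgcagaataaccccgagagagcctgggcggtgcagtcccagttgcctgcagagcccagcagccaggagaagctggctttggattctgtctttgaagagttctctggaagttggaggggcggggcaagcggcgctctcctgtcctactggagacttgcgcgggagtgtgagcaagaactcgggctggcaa

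The motifs searched on both strands were TGACGTCA, the palindromic cAMP response element, TGACG, its shorter form that also lies within it, TGATGNAA, the core of the element bound by C/EBP-ATF dimers such as those with ATF4, AGGTCA, a nuclear receptor site, TATAAA, the TATA box, and CCAAT. The *Dio2* window held TGACGTCA with its first base 95 bases upstream of the start site and TATAAA 30 bases upstream. Of all 32851 promoter windows of this length, 1.79% hold TGACGTCA, 20.8% hold TGACG and 13.6% hold TATAAA. The *Letmd1* window held AGGTCA 201 bases upstream and CCAAT 34 bases upstream, motifs that 16.3% and 37.4% of all windows hold. The *Tmem26* window held none of the 6 motifs, and TGATGNAA, which 3.97% of all windows hold, was in none of the 3. The G and C content was 44.7% for *Dio2*, 60.7% for *Tmem26* and 79.0% for *Letmd1*, with a median of 52.7% over all windows. These are matches of letters and say nothing on binding. The start of *Dio2* in the GENCODE annotation lies 600 bases downstream of the RefSeq start, while that of *Letmd1* differs by 12 bases and that of *Tmem26* lies 100 bases upstream.

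*Dio2* (NM_010050) showed the largest fold change of the 5 genes. It lies on the minus strand of chromosome 12 (90724552 to 90738438, mm10), where only an unlisted opposite-strand transcript overlaps it. At RT it was at 274, 89.5 and 36.2 normalized counts in Atf4WT and at 89.2, 292 and 83.5 in Atf4AKO, so both genotypes held 1 library well above the other two. After cold it was at 7209, 4389 and 6023 in Atf4WT and at 7010.0, 8011 and 10399.8 in Atf4AKO. The lowest cold library was therefore far above the highest RT library. The change was 59.1-fold in Atf4WT (log2 5.88 ± 0.63 SE, 95% interval 4.49 to 7.28, n = 3 and 3, limma adjusted p = 0.000132). It depended on the RT libraries, and was log2 6.63 without Atf4WT RT replicate 0 and 5.19 without replicate 2, called in both cases. In Atf4AKO it was 64.0-fold (log2 6.0 ± 0.63 SE, 95% interval 4.61 to 7.39, limma adjusted p = 0.000139). It was number 4 of all tested genes by size of rise in both genotypes, behind *Ucp1* at number 3.

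*Letmd1* (NM_001357984) was the steadiest of the 5 genes in Atf4WT. It lies on the plus strand of chromosome 15 (100469023 to 100479164, mm10). At RT its level was 1819, 1785 and 1708 normalized counts in Atf4WT and 1773, 2010 and 1854 in Atf4AKO. After cold it was 5691, 5463 and 4922 in Atf4WT and 4722, 7623 and 6942 in Atf4AKO. The coefficient of variation was 3.22% at RT and 7.37% after cold in Atf4WT, and 6.43% and 23.6% in Atf4AKO, where replicate 0 of the cold group was low. The rise was 3.02-fold in Atf4WT (log2 1.59 ± 0.15 SE, limma adjusted p = 6.5e-05) and 3.36-fold in Atf4AKO (log2 1.75 ± 0.15 SE, limma adjusted p = 4.2e-05).

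*Kcnk3* (NM_010608) rose least of the 4 genes. It lies on the plus strand of chromosome 5 (30588170 to 30625271, mm10) and overlaps an unlisted opposite-strand transcript. Its RT levels were 2963, 2680 and 2238 normalized counts in Atf4WT and 3299, 3349 and 2745 in Atf4AKO. Its cold levels were 8684, 6737 and 5510.0 in Atf4WT and 7209, 8418 and 8421 in Atf4AKO, with the Atf4WT libraries spread more widely than the Atf4AKO libraries. The rise was 2.63-fold in Atf4WT (log2 1.39 ± 0.16 SE, limma adjusted p = 0.000205) and 2.56-fold in Atf4AKO (log2 1.36 ± 0.16 SE, limma adjusted p = 0.000288).

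*Tmem26* (NM_177794) had the lowest mean level per kb of exon of the 5 genes in every group. It lies on the plus strand of chromosome 10 (68723646 to 68782650, mm10). Its RT levels were 104, 27.9 and 59.3 normalized counts in Atf4WT and 87.4, 101 and 53.8 in Atf4AKO. Its cold levels were 52.4, 39.1 and 112 in Atf4WT and 81.8, 15.9 and 66.6 in Atf4AKO, so all groups overlapped. The libraries held between 14 and 119 reads of the gene. The cold change was 0.13 ± 0.64 SE on the log2 scale in Atf4WT (95% interval −1.28 to 1.55, limma adjusted p = 0.896) and −0.79 ± 0.64 SE in Atf4AKO (95% interval −2.20 to 0.62, limma adjusted p = 0.386). These intervals take in a fold between 0.41 and 2.92 in Atf4WT and between 0.22 and 1.53 in Atf4AKO. A change within these bounds is not excluded. The sign in Atf4WT turned to −0.59 with the lymphocyte score as a covariate, a score that did not overlap between RT and cold in Atf4WT.

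*Cidea* (NM_007702) had the highest mean level per kb of exon of the 5 genes in every group. It lies on the plus strand of chromosome 18 (67343604 to 67367785, mm10) and overlaps an unlisted opposite-strand transcript. At RT it was at 4077, 4082 and 3831 normalized counts in Atf4WT and at 3986, 5281 and 4139 in Atf4AKO. After cold it was at 19210.4, 18138 and 16209 in Atf4WT and at 13136, 26134 and 22607 in Atf4AKO. The Atf4AKO cold libraries lay on both sides of the Atf4WT cold libraries, with replicate 0 below all 3 of them and the other two above. The rise was 4.46-fold in Atf4WT (log2 2.16 ± 0.21 SE, limma adjusted p = 8.7e-05) and 4.47-fold in Atf4AKO (log2 2.16 ± 0.21 SE, limma adjusted p = 8.7e-05).

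Divided by the length of the merged exons, the level at RT in Atf4WT fell from *Cidea* (3585 ± 129 SD normalized counts per kb, n = 3) over *Kcnk3* (661 ± 91.9) and *Letmd1* (365 ± 11.8) to *Dio2* (22.9 ± 21.4) and *Tmem26* (12.1 ± 7.22). The last pair overlapped in their spread. After cold in Atf4WT the levels per kb were 16011 ± 1364 for *Cidea*, 1755 ± 403 for *Kcnk3*, 1106 ± 81.4 for *Letmd1* and 1010 ± 244 for *Dio2*, with *Tmem26* at 12.8 ± 7.36. By these lengths *Dio2* moved from the level of *Tmem26* to that of *Letmd1*, from which it did not differ beyond the spread. The merged exons of *Letmd1* span 4847 bases over all annotated transcripts, and the length of its own transcript was not at hand. Levels set against *Letmd1* per kb therefore depend on a length that was not checked. In Atf4AKO after cold *Dio2* was at 1457 ± 299.5 and *Letmd1* at 1326 ± 313, again within their spread. *Ucp1*, the uncoupling protein itself, went from 271 ± 147 per kb at RT to 49529 ± 7282 after cold in Atf4WT, from a level that overlapped that of *Letmd1* to one above *Cidea*.

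None of the 5 genes was called in a comparison of the genotypes. After cold, the Atf4AKO level over the Atf4WT level was 1.11-fold for *Cidea* (95% interval 0.81 to 1.53), 1.45-fold for *Dio2* (0.55 to 3.81), 1.17-fold for *Kcnk3* (0.91 to 1.49), 1.18-fold for *Letmd1* (0.94 to 1.47) and 0.73-fold for *Tmem26* (0.27 to 1.95). The limma adjusted p-values were 0.824, 0.788, 0.639, 0.582 and 0.831 in that order. Of all tested genes, 0.0298% were called in this comparison. A difference within those intervals is not excluded, and for *Dio2* and *Tmem26* the intervals are wide.

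At RT the same ratio was 1.11-fold for *Cidea* (95% interval 0.81 to 1.53), 1.34-fold for *Dio2* (0.51 to 3.52), 1.19-fold for *Kcnk3* (0.94 to 1.53), 1.06-fold for *Letmd1* (0.85 to 1.32) and 1.39-fold for *Tmem26* (0.52 to 3.70). None was called, against 0.00746% of all tested genes. The direction for *Dio2* was not stable, at log2 −0.27 without Atf4WT RT replicate 2, −0.16 without Atf4AKO RT replicate 1 and 1.17 without Atf4WT RT replicate 0. Averaged over RT and cold, which uses all 12 libraries, *Kcnk3* came nearest to a difference, at 1.18-fold (95% interval 0.99 to 1.40, limma unadjusted p = 0.0586, adjusted p = 0.639). In that comparison 0.0298% of tested genes were called. No member reached an unadjusted p under 0.05 in any of these comparisons by limma, edgeR or DESeq2. Of 13404 genes, 1571, 1748 and 1642 did so after cold in that order of tools. At RT 205, 292 and 276 genes did so, and 1047, 1200 and 1215 in the average. With 5 members, none at this threshold is near the background and is not a trait of the members. The adjusted p called 4, 3 and 590 genes after cold, 1, 1 and 5 at RT, and 4, 4 and 189 in the average.

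The cold response of Atf4AKO minus that of Atf4WT was 0.003 ± 0.30 SE on the log2 scale for *Cidea* (95% interval −0.65 to 0.65). It was 0.11 ± 0.90 for *Dio2* (−1.85 to 2.08), −0.04 ± 0.23 for *Kcnk3* (−0.53 to 0.46) and 0.15 ± 0.21 for *Letmd1* (−0.30 to 0.61). For *Tmem26* it was −0.93 ± 0.91 (−2.92 to 1.07). A difference within these intervals is not excluded, and those of *Dio2* and *Tmem26* are wide. Of all tested genes 0.0% were called here by limma, with 928 genes at an unadjusted p under 0.05, while edgeR called 0 and DESeq2 132 genes and none of the 5 members.

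**Figure D2:**
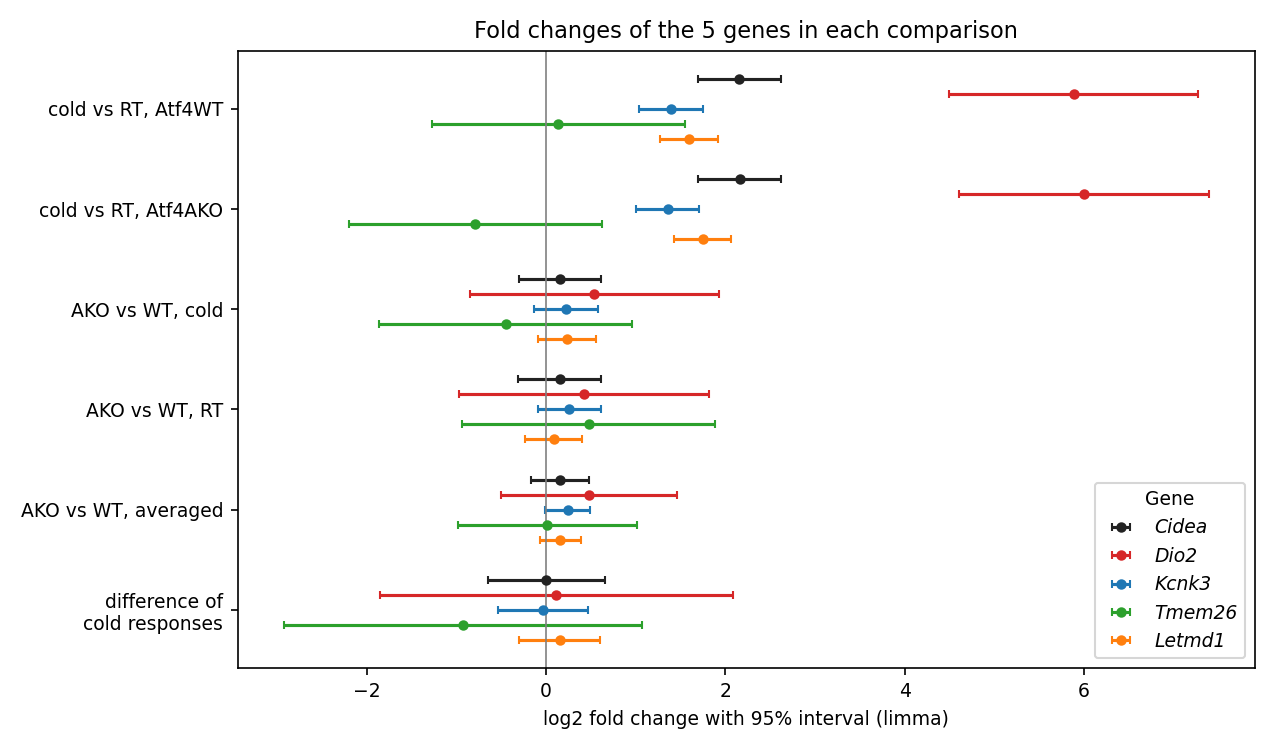
The log2 fold change (limma, horizontal axis) of the 5 genes in the 6 comparisons, with bars for the 95% interval from 12 libraries. The intervals of Cidea, Dio2, Kcnk3 and Letmd1 lie above 0 in both cold comparisons, and all intervals between the genotypes and of the difference of the responses hold 0.

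The lymphocyte and adipocyte markers moved with the members from library to library. Over the deviations of the 12 libraries from their group means, the correlation with the lymphocyte score was −0.82 for *Kcnk3*, −0.72 for *Dio2*, −0.55 for *Letmd1*, −0.55 for *Cidea* and 0.27 for *Tmem26*. With the mean log2 level of the white adipocyte markers it was 0.76 for *Kcnk3*, 0.63 for *Dio2*, 0.60 for *Cidea*, 0.57 for *Letmd1* and −0.44 for *Tmem26*. These are descriptions of 12 libraries, in which each point shares its library and size factor with both measures. The adipocyte score was 15.87 to 16.17 in Atf4WT after cold and 16.16 to 16.44 in Atf4AKO after cold, with overlap. Its part in the genotype differences of the members, none of which was called, was not tested. All 8 listed B cell markers and all 9 T cell markers rose after cold in Atf4WT, where 17.0% of all tested genes were called higher. None was called in Atf4AKO, where 14.8% of all tested genes were called higher. Between the genotypes after cold these markers were not called, and 0.0298% of all tested genes were. Their median log2 fold changes there were −5.73 (B cell) and −3.33 (T cell). No marker was called in the difference of the responses, where 0.0% of all tested genes were. The B cell markers summed to 3650 in the highest Atf4WT RT library and to 3657 in the lowest Atf4WT cold library. With the lymphocyte score as a covariate, the differences after cold became −0.43 for *Cidea*, −1.85 for *Dio2*, −0.43 for *Kcnk3* and −0.16 for *Letmd1* on the log2 scale, and no member was called. The score did not overlap between the genotypes after cold, so these values are extrapolations. Score and genotype cannot be told apart there. The cold response in Atf4WT was as large without the pair of libraries of highest lymphocyte score, at log2 2.27 for *Cidea*, 6.21 for *Dio2*, 1.73 for *Kcnk3* and 1.68 for *Letmd1*, all of them called. The genotype differences after cold were then 0.04 for *Cidea*, 0.21 for *Dio2*, −0.12 for *Kcnk3* and 0.15 for *Letmd1*, and none was called. One Atf4WT cold library is then left, whose spread is assumed to be that of the other groups.

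*Cidea* and *Letmd1* rose and fell together almost library by library. Their correlation was 0.998 over the 12 libraries (Spearman 0.993) and 0.984 in the deviations from the group means, and each was the gene most like the other among 11842 genes whose mean reached 50 normalized counts. Both were low in replicate 0 and high in replicate 1 of the Atf4AKO cold group. *Letmd1* was at 0.443 ± 0.005 of the *Cidea* level in Atf4WT at RT and at 0.300 ± 0.004 after cold (SD, n = 3), without overlap, since *Cidea* rose more. In Atf4AKO the ratio was 0.424 ± 0.038 at RT and 0.319 ± 0.036 after cold. The other members were less alike within groups. The correlation of deviations was 0.58 between *Dio2* and *Kcnk3*, 0.54 between *Kcnk3* and *Letmd1*, 0.51 between *Cidea* and *Kcnk3*, and 0.36 between *Cidea* and *Dio2*. Between *Dio2* and *Letmd1* it was 0.31. *Tmem26*, with 14 to 119 reads per library, ran the other way from *Letmd1* (−0.54) and *Cidea* (−0.49). With *Kcnk3* it was at −0.17 and with *Dio2* at 0.34. *Ucp1* followed *Kcnk3* (0.55) more than *Dio2* (0.25), *Letmd1* (0.16) or *Cidea* (0.15).

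**Figure D3:**
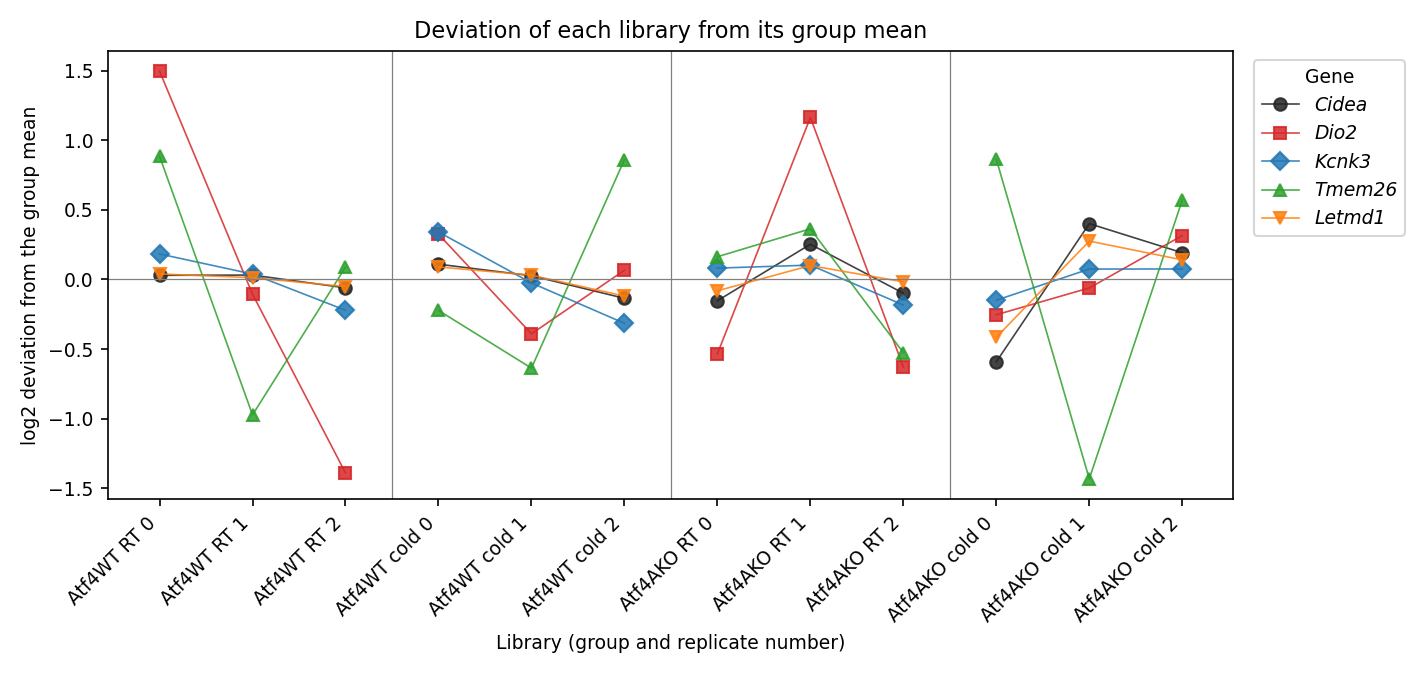
Deviation of each library from its group mean (log2 scale, vertical axis) for the 5 genes in the 12 libraries (horizontal axis), with lines joining the 3 libraries of a group only to guide the eye. Cidea and Letmd1 lie close together in every library (r = 0.984), while Dio2 spreads most at RT and Tmem26 departs from the others, most of all in Atf4AKO cold replicate 1.

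The genes most like each member over the 12 libraries were named by their correlation of log2 levels. For *Cidea*, after *Letmd1*, these were the mitochondrial ribosomal protein genes *Mrpl19* (0.995), *Mrpl47* (0.993) and *Mrps2* (0.993) and *Rhot2* (0.994), which encodes a GTPase of the outer mitochondrial membrane. For *Letmd1*, after *Cidea*, they were *Mrpl47* (0.996), *Rhot2* (0.995), *Tmed5* (0.994) and *Slc4a4* (0.994). For *Dio2* they were *Hoxa4* (0.993), *Esrra* (0.989), *Plin5* (0.988), *Ncln* (0.988) and *Ppif* (0.988). For *Kcnk3* they were *Clstn3* (0.992), *Lamtor3* (0.991), *Spsb3* (0.990), *Ube2f* (0.988) and *Fuom* (0.988). For *Tmem26* the likeness was lower, with *Igsf3* (0.945), *Pld3* (0.897), *Tnfrsf1b* (0.859), *Pak1* (0.855) and *Zfp747* (0.854).

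With the group means removed, *Mrpl19* (0.971), *Mrpl47* (0.962), *Btbd1* (0.942) and *Idh3b* (0.956), a subunit of mitochondrial isocitrate dehydrogenase, followed *Letmd1* (0.984) as the genes most like *Cidea*. *Letmd1* was followed by *Cidea*, *Mrpl47* (0.961), *Mrpl19* (0.955), *Alg1* (0.955) and *Idh3b* (0.944), so that *Mrpl47*, *Mrpl19* and *Idh3b* stood in both lists. *Dio2* was followed by *Zfp790* (0.935), *Abcb6* (0.934), *Nars2* (0.924), *Sephs2* (0.915) and *Itpka* (0.912), of which *Sephs2* encodes selenophosphate synthetase, an enzyme of selenoprotein synthesis. *Kcnk3* was followed by *Eppk1* (0.981), *Sar1a* (0.959), *Glrx2* (0.956) and *Naxd* (0.931). *Tmem26* was followed by *Zfp65* (0.979), *Etv3* (0.962), *Igsf3* (0.946), *Adgrl2* (0.933) and *Cpeb4* (0.931). With 12 libraries and 4 group means, some of 11842 genes will show high values, and these are descriptions only.

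Around *Cidea* on the lipid droplet, 6 of 17 tested genes rose and 2 fell in Atf4WT after cold, and 5 rose and 0 fell in Atf4AKO, beside 17.0% and 14.9% of all tested genes in Atf4WT and 14.8% and 11.0% in Atf4AKO. The median log2 fold change was 0.13 in Atf4WT and 0.18 in Atf4AKO, beside 0.003 and −0.03 for all tested genes. The relatives of *Cidea* went apart. *Cideb*, which serves lipoprotein lipidation in the liver, rose by 1.73 ± 0.58 SE on the log2 scale in Atf4WT (limma adjusted p = 0.040) and 1.72 ± 0.58 in Atf4AKO (0.049). Its RT levels were low, at 4.64 to 14.4 normalized counts in Atf4WT and 2.79 to 8.96 in Atf4AKO. After cold it was at 23.6 to 28.5 in Atf4WT and at 12.9, 13.8 and 47.6 in Atf4AKO. It overlaps *Nop9* on the opposite strand by 1451 bases, and without the strand setting of the counting their reads cannot be told apart. *Cidec*, which enlarges the droplets of white adipocytes, was at 0.003 ± 0.22 and 0.01 ± 0.22 and was not called. *Plin5*, which ties droplets to mitochondria, rose by 2.25 and 2.23 and *Plin2*, a coat protein of small droplets, by 1.36 and 1.15. *Abhd5*, the co-activator of the lipase ATGL, rose by 0.66 and 0.56. *Fitm2*, which helps droplets to form, rose by 0.41 and 0.68. *Bscl2*, which encodes seipin, rose by 0.41 in Atf4WT and was at 0.36 and not called in Atf4AKO, while *Plin3* and *Plin4* fell by 0.34 and 0.71 in Atf4WT and were at −0.24 and −0.27 and not called in Atf4AKO. Fewer of these genes were called in Atf4WT without the pair of libraries of highest lymphocyte score, a fit that leaves 1 Atf4WT cold library. The share of all genes called in it is not given.

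Around *Dio2*, 6 of 22 tested thyroid hormone and selenoprotein genes rose and 4 fell in Atf4WT, and 9 rose and 2 fell in Atf4AKO, with medians of 0.19 and 0.21. Of all tested genes 17.0% rose and 14.9% fell in Atf4WT and 14.8% and 11.0% in Atf4AKO, so the genes that fell were near the background. The other deiodinases, *Dio1* and *Dio3*, are not listed. *Usp33*, a deubiquitinase that stabilizes the deiodinase protein, rose by 0.85 and 0.86 on the log2 scale. *Thrsp*, a thyroid hormone responsive gene of lipid synthesis, rose by 1.08 and 0.83. *Secisbp2*, which reads the selenocysteine signal of messages such as that of *Dio2*, rose by 0.43 and 0.47. *Sephs2* rose by 0.75 in Atf4WT and was at 0.54 and not called in Atf4AKO, while *Sepsecs*, the selenocysteine synthase, rose by 0.52 in Atf4AKO and was at 0.22 and not called in Atf4WT. Among receptors, *Thra* fell by 0.69 in Atf4WT and by 0.53 in Atf4AKO, although it overlaps *Nr1d1* on the opposite strand. *Thrb* rose by 0.42 in Atf4AKO and was at 0.09 and not called in Atf4WT. Their partners went apart as well, since *Rxrb* rose by 0.36 and 0.39 and *Rxra* fell by 0.50 and 0.46. *Rxrg* rose by 0.67 in Atf4AKO and was at 0.40 and not called in Atf4WT. The coregulator *Med1* rose by 0.29 in Atf4WT and 0.35 in Atf4AKO, and *Ncor1* and *Ncoa2* fell by 0.35 and 0.28 in Atf4WT and were at −0.20 and −0.23 and not called in Atf4AKO. These counts depended on the libraries, and fewer of the genes were called in Atf4WT without the pair of libraries of highest lymphocyte score. That fit leaves 1 Atf4WT cold library. The share of all genes called in it is not given, so the drop cannot be read as a trait of these genes.

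Among the other two-pore potassium channels, 6 of 13 are listed, and 1 rose and 1 fell after cold in each genotype, near the background of 17.0% and 14.9% of all tested genes in Atf4WT and 14.8% and 11.0% in Atf4AKO. *Kcnk4* rose by 1.34 in Atf4WT and 1.62 in Atf4AKO, but overlaps *Catsperz* on the same strand, so that their reads may be split. It was not called in Atf4WT without the pair of libraries of highest lymphocyte score, a fit that leaves 1 Atf4WT cold library. *Kcnk2*, which encodes TREK-1, fell by 0.98 and 0.64. *Kcnk1*, *Kcnk5*, *Kcnk6* and *Kcnk13* were not called in either genotype. Their log2 fold changes were −0.94, −0.40, −0.20 and −0.58 in Atf4WT and −0.30, −0.94, −0.47 and −1.21 in Atf4AKO. The medians of the 6 genes were −0.49 and −0.55.

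Around *Letmd1*, 5 of 11 tested genes of the LETM family and of mitochondrial cation transport rose and 1 fell in Atf4WT, and 5 rose and 2 fell in Atf4AKO, with medians of 0.32 and 0.35. The shares of all tested genes were 17.0% and 14.9% in Atf4WT and 14.8% and 11.0% in Atf4AKO. *Letm1*, the cation exchanger of the inner membrane after which the family is named, rose by 1.31 and 1.29, near the values of *Letmd1*, and *Letm2* is not listed. *Micu3*, which enhances mitochondrial calcium uptake, rose by 0.57 and 0.61, and *Micu2*, which restrains it, fell by 0.42 and 0.41. *Abcb8* and *Ccdc51*, which form a mitochondrial potassium channel, rose by 0.32 and 0.53 in Atf4WT and by 0.51 and 0.51 in Atf4AKO. *Smdt1* rose by 0.42 in Atf4WT and was at 0.35 and not called in Atf4AKO, and *Ghitm* rose by 0.48 in Atf4AKO and was at 0.38 and not called in Atf4WT. The pore subunit *Mcu* was at −0.09 and −0.14 and was not called. Fewer of the 11 genes were called in Atf4WT without the pair of libraries of highest lymphocyte score, which leaves 1 Atf4WT cold library. The share of all genes called in that fit is not given.

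Among 34 other tested genes of beige and brown adipocytes, 14 rose and 1 fell in Atf4WT and 13 rose and 0 fell in Atf4AKO, with medians of 0.45 and 0.28. These counts stand beside 17.0% of all tested genes called higher and 14.9% lower in Atf4WT, and 14.8% and 11.0% in Atf4AKO. *Fabp3*, a fatty acid carrier, rose by 7.92 and 9.61 on the log2 scale, *Elovl3*, a fatty acid elongase, by 7.75 and 8.04, and *Ucp1* by 7.67 and 7.51. The highest Atf4WT RT library held *Fabp3* at 106 normalized counts, where the median of that group was 9.62. In Atf4AKO at RT it was at 4.65 to 7.97. *Cpt1b*, which brings fatty acids into mitochondria, rose by 2.91 and 3.79, with a same-strand overlap of an unlisted gene, and the hormone gene *Fgf21* by 2.63 and 1.80. *Fgf21* was low at RT, at 2.78 to 9.62 normalized counts in Atf4WT and 3.71 to 7.97 in Atf4AKO. *Cox7a1*, a subunit of cytochrome oxidase, rose by 2.11 and 2.77. *Tbx1* and *Tnfrsf9*, which are used with *Tmem26* to mark beige cells, were at 0.45 and 0.88 in Atf4WT and at 0.28 and −0.41 in Atf4AKO, and neither was called. They were picked after their values were seen and do not stand for all beige markers. *Slc27a1*, also in this set, went from 17071 to 21805 normalized counts at RT to 38498 to 53852 after cold in Atf4WT. In Atf4AKO it went from 16479 to 28416 at RT to 50801 to 51998 after cold. Among regulators, *Ppara* rose by 1.27 and 1.74 and *Ppargc1a*, a co-activator of mitochondrial genes, by 2.01 and 2.57, while *Prdm16* (−0.01 and 0.27) and *Ebf2* (−0.48 and −0.22) were not called. *Adrb3*, the β-adrenergic receptor of adipocytes, fell by 1.04 in Atf4WT and was at −0.76 and not called in Atf4AKO. *Dio2* stood next after *Ucp1* in this set, and *Cidea*, *Letmd1* and *Kcnk3* had rises of the size of those of *Cox7a1*, *Ppargc1a* and *Cox8b* (1.48 and 1.41). Somewhat fewer of the 34 genes were called higher in Atf4WT without the pair of libraries of highest lymphocyte score, which leaves 1 Atf4WT cold library. The share of all genes called in that fit is not given. None of the 34 was called between the genotypes at either temperature or in the difference of the responses. Of all tested genes 0.0298% were called after cold, 0.00746% at RT and 0.0% in that difference, so this count is near the background.

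**Figure D4:**
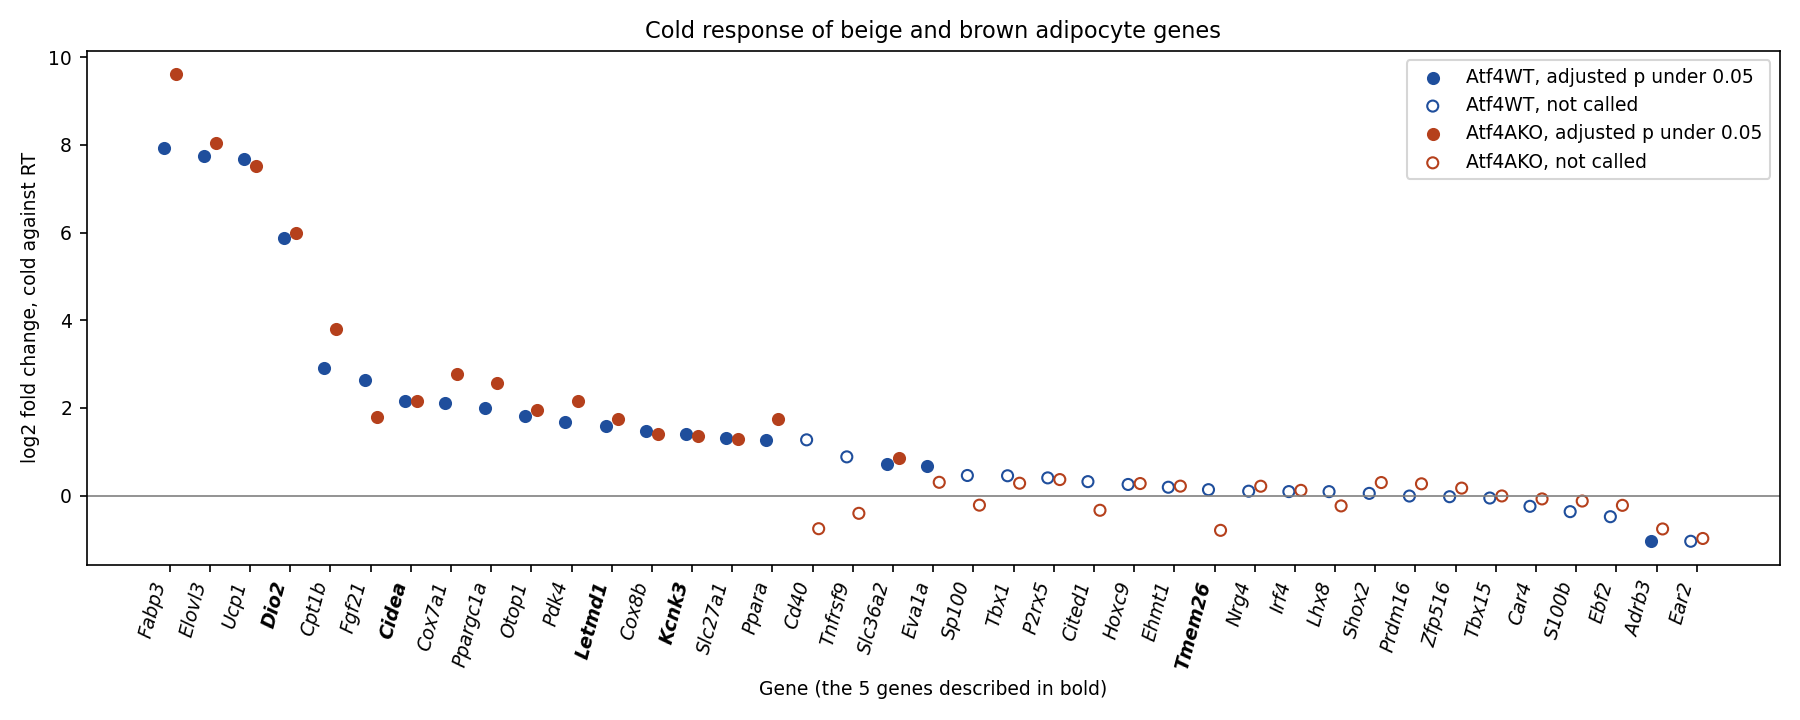
The log2 fold change of cold against RT (vertical axis) in Atf4WT and Atf4AKO for the 34 tested beige and brown adipocyte genes and the 5 genes described (horizontal axis, bold, ordered by the change in Atf4WT), with filled points for a limma adjusted p under 0.05. Dio2, Cidea, Letmd1 and Kcnk3 are filled in both genotypes, with Dio2 next after Fabp3, Elovl3 and Ucp1, and Tmem26 is open in both.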

How the data were processed

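Poly(A) RNA of whole iWAT was sequenced in 12 libraries, 3 in each of 4 groups. According to the methods of the study, reads from strand-specific libraries were filtered with SOAPnuke, mapped to mm10 with STAR and counted with featureCounts, uniquely mapped reads only, and then normalized in pyDESeq2. Tool versions and the strand setting of the counting are not given in the sources used here. The deposited values are a normalized signal, the reads of a gene divided by the size factor of its library. In every library 100% of the values were whole multiples of the value of 1 read (tolerance 0.001 reads), and the recovered reads ranged from 25719476 to 29105147 per library. No listed gene was without reads in any library, and genes outside the deposited values are not analysed here. The chi-square per degree of freedom between replicates was 34.5 to 69.8, so no pair agreed within counting noise.

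Differences were tested with limma 3.58.1 (lmFit, eBayes with trend, R 4.3.3) after taking log2(normalized count + 1). Of the listed genes 13404 had a mean of 10 or more and were tested, and 755 were not. One model with 4 group means and no covariate was fitted to the 12 libraries, and p-values were adjusted over all tested genes (Benjamini-Hochberg). Fold changes on this scale understate those of low genes. The study names DESeq2 for its differential genes. DESeq2 1.42.0 and edgeR 4.0.16 (quasi-likelihood) were run on the recovered reads as alternatives. The other alternatives were pseudocounts of 0.5 and 5, no filter, a filter at a mean of 50, only the groups compared, rescaling to the same 75th percentile or to the white adipocyte markers, array weights, a replicate block, the lymphocyte score as a covariate, the threshold of the study (fold change over 1.5 and unadjusted p under 0.05), each library left out in turn and, chosen after seeing the data, the pair of libraries of highest lymphocyte score left out. The tests were checked on simulated counts.

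Named genes were the 5 members, for each the 5 genes with the highest Pearson correlation of values and the 5 of deviations, Atf4, Ucp1, the list genes called in a cold comparison (at most 6 each way) and the family relatives. Ppara, Ppargc1a, Cox8b, Tbx1, Tnfrsf9, Slc27a1, Prdm16, Ebf2 and Mcu were named after their values were seen. Some genes that the rule names are not reported here. The members and lists were chosen with earlier results of these data known. Positions and exon lengths came from GENCODE M21 (mm10) and promoters from RefSeq. Python 3.11.15 with pandas 2.3.3, numpy 2.4.6 and matplotlib 3.10.9 did the rest.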

Additional observations from a re-analysis of the deposited data

How the results depend on the processing

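The 4 genes called in each cold comparison and the 0 called between the genotypes stayed at those numbers in all 154 recomputed counts, 712 recomputed fold changes of the members kept their direction and side of the threshold, and 58, all of values that were not called, changed sign. These are differences on the log2 scale, and the cause was not tested. The lymphocyte score did not overlap between the genotypes after cold, or between RT and cold in Atf4WT, so values adjusted for it are extrapolations. With the lymphocyte score as a covariate, Tmem26 was at −0.588 for cold in Atf4WT. The genotype difference after cold was then −0.428 for Cidea, −1.85 for Dio2, −0.432 for Kcnk3, 0.433 for Tmem26 and −0.160 for Letmd1, the average −0.157, −0.785, −0.108 and −0.0505 for Cidea, Dio2, Kcnk3 and Letmd1, and the difference of the responses −0.542, −2.12 and −0.219 for Cidea, Dio2 and Letmd1. Scaled to the adipocyte markers, which moved the median of all genes between the genotypes after cold from 0.05 to −0.16, Cidea was at −0.058 after cold, Tmem26 at −0.115 in the average, and Cidea, Dio2 and Letmd1 at −0.157, −0.047 and −0.0083 in the difference of the responses. With array weights, Tmem26 was at −0.303 for cold in Atf4WT, Dio2 at −0.251 between the genotypes at RT and Cidea at −0.0174 in the difference of the responses. At the same 75th percentile, Tmem26 was at −0.0149 in the average and Cidea at −0.0347 in the difference of the responses. Without the pair of libraries of highest lymphocyte score, Atf4WT cold replicates 1 and 2, Tmem26 was at −0.0883 for cold in Atf4WT, Kcnk3 at −0.119 between the genotypes after cold, and Cidea and Dio2 at −0.106 and −0.211 in the difference of the responses. With each library left out in turn, Tmem26 ranged from −0.352 to 0.577 for cold in Atf4WT, from −0.883 to 0.265 between the genotypes after cold, from −0.0107 to 0.919 at RT and from −0.231 to 0.370 in the average. Cidea ranged from −0.0474 to 0.449 after cold and Dio2 from −0.271 to 1.17 at RT, and the difference of the responses ranged from −0.197 to 0.299 for Cidea, −0.634 to 0.810 for Dio2 and −0.193 to 0.135 for Kcnk3. The cold changes of Cidea, Dio2, Kcnk3 and Letmd1 ran from 2.10 to 2.63, 5.15 to 7.83, 1.22 to 1.93 and 1.55 to 1.92 in Atf4WT over all alternatives, and from 1.96 to 2.45, 5.68 to 6.58, 1.27 to 1.43 and 1.61 to 1.95 in Atf4AKO. Of the counts of list genes, 426 stayed within 1.5 times and 94 did not. The replicate numbers name different animals, the deviations of same-numbered libraries correlated at −0.19 to 0.39, with 9 of 18 pairs over 0.1, and the replicate block left 4, 4, 0, 0, 0 and 0 members called in the 6 comparisons. The number of libraries limits the precision for Dio2 at RT and for Tmem26, whose libraries held as few as 39 and 14 reads.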
